A study of Homo sapiens with 4 samples.

Results

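The genes described here are the 10 members of the MYC, MAX and MXD network that the count table lists by symbol, out of 28103 gene symbols in all. The rule is a list of symbols and uses no measured value, though the list was drawn up with earlier results of these data known: MYC, MYCN, MYCL, MAX, MXD1, MXD3, MXD4, MXI1, MNT and MLXIP. The libraries were made from poly(A) RNA of HEL, an established erythroleukaemia line that the labels describe as erythroblast, 2 of them labelled Ctrl (genotype WT) and 2 labelled AFF4_KD (genotype AFF4 knockdown). All 4 come from the same line, grown with serum in RPMI-1640. How and for how long AFF4 was knocked down, and whether replicates are separate cultures, was not given in the sources used here. All p-values therefore speak of the spread among these libraries, possibly a technical one. The study's title concerns the release of paused RNA polymerase II, which AFF4 promotes as a scaffold of the super elongation complex.

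The proteins of this network share a basic helix-loop-helix leucine zipper that pairs them with each other and places them on the E-box, CACGTG. MYC, MYCN and MYCL bind DNA with the partner MAX and activate genes of growth, ribosome production and metabolism. The MXD proteins (MXD1, MXD3, MXD4 and MXI1, which is also called MXD2) and MNT compete for the same MAX and the same sites and repress through the SIN3 corepressor, and MXD1 is known for its rise as blood cells mature. MLXIP, or MondoA, pairs with MLX and not with MAX, and drives glucose-responsive genes such as TXNIP.

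The E-box is the sequence that the network's proteins read, so the promoters of the members were searched for it. RefSeq windows (GRCh38.p14) of 300 bases, 250 before and 50 after a transcription start, were matched for 9 of the 10 members, with MYC not matched, and gave 12 windows. CACGTG, which reads the same on both strands, was found in the windows of MXD4 and MNT, 2 of the 9 members. It stood in 7.26% of the 35116 windows of all genes and in 12.5% of the 10258 tested genes that had a window. The stretches below lie before the start, outside any exon of the GENCODE v29 annotation, and are written 5′ to 3′ on the strand of the gene, with the E-box in capitals. MXD4 and MNT are shown for their E-box, whose first base is at -238 and -193 from the start, and MXD1 and MXI1 because their levels differed most between the groups and their windows hold no CACGTG. Of the 3 windows of MXI1 the one with the most CG dinucleotides is shown.
MXD4 promoter, chr4:2262295-2262359, minus strand: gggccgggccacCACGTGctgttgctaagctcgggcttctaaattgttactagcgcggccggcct
MNT promoter, chr17:2401119-2401310, minus strand: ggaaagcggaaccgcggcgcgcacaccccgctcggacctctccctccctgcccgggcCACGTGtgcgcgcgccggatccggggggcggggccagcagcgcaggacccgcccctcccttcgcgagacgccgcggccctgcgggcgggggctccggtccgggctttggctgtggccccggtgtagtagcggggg
MXD1 promoter, chr2:69914859-69915040, plus strand: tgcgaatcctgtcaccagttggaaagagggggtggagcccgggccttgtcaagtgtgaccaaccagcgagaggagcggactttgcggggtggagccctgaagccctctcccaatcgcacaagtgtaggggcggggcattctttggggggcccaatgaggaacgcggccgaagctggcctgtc
MXI1 promoter, chr10:110209981-110210230, plus strand: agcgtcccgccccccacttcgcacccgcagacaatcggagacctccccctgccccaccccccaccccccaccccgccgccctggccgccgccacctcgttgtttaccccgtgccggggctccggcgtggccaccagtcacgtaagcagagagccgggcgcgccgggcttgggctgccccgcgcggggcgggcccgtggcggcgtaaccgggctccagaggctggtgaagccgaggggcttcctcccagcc

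The libraries held between 14903878 and 19129008 counts. AFF4, the targeted gene, fell from 78.7 ± 13.6 to 18.8 ± 0.187 CPM (CPM, counts scaled to a common library size after TMM, mean ± SD, n = 2 each; edgeR quasi-likelihood test, adjusted p = 0.0268). The 12 erythroid and megakaryocytic markers fixed for HEL were all above the filter on low counts, GATA1 among them. Their summed level was 13589 and 16099 CPM in Ctrl and 10504 and 10512 CPM under knockdown, with 6 positive, 6 negative and a median log2 fold change of -0.04. Most of that sum came from the globin genes HBG1 and HBG2, the latter at 6109 and 7003 CPM in Ctrl and 4138 and 4044 CPM under knockdown. Of the positive markers EPOR had the largest difference (log2 fold change 0.76 ± 0.27, SE; edgeR adjusted p = 0.251). The fetal globin HBG1 fell, the 1 marker of 12 called by edgeR (log2 fold change -0.86 ± 0.12, SE; adjusted p = 0.0394; DESeq2 called 2), from 3932 and 4397 CPM to 2341 and 2242 CPM, and its near-identical copy HBG2 had -0.68 ± 0.12 (SE; edgeR adjusted p = 0.0641), so how reads were split between them is uncertain. The part of these markers in the results below was not tested. CD3D, CD3E and CD3G of T cells were at 0 in every library, as were COL1A2, COL3A1 and DCN of fibroblasts, and the 3 hepatocyte markers summed to at most 0.416 CPM. A 0 in this table is by itself no measure of absence, since EIF4A1, described below, was listed at 0 too. The keratins KRT8 and KRT18 were detected, with the 4 epithelial markers summing to between 43.8 and 66.5 CPM, whereas CDH1 had at most 1 count in a library.

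Under knockdown the transcripts of MYC and its partner MAX lay 1.26-fold and 1.27-fold above Ctrl, and those of the repressors MXD1 and MXI1 lay at 0.594 and 0.652 times the Ctrl level. The other 6 members had overlapping groups. All 10 members passed the filter on low counts, and 0 of 10 passed the edgeR test at an adjusted p under 0.05, where 0.641% of the 13572 tested genes did. At an unadjusted p under 0.05 there were 4 members, 2 higher (MYC and MAX) and 2 lower (MXD1 and MXI1) under knockdown, against 15.0% of the tested genes (6.79% higher and 8.19% lower). DESeq2 called 1 member, MXD1, with 3.05% of its genes called (1.63% lower), and limma-voom called 0, with 0.678%. The same 4 genes were the members whose groups did not overlap, a separation seen in 46.1% of the tested genes (23.1% higher and 23.0% lower), so that 4 of 10 is close to the share among all genes. The median log2 fold change was 0.07 over the members and -0.0089 over all tested genes. Scaling sets the bulk of genes to no change, so every difference is relative to the other genes, and in bulk RNA a lower level in all cells and a smaller share of cells with the transcript cannot be told apart.

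**Figure D1:**
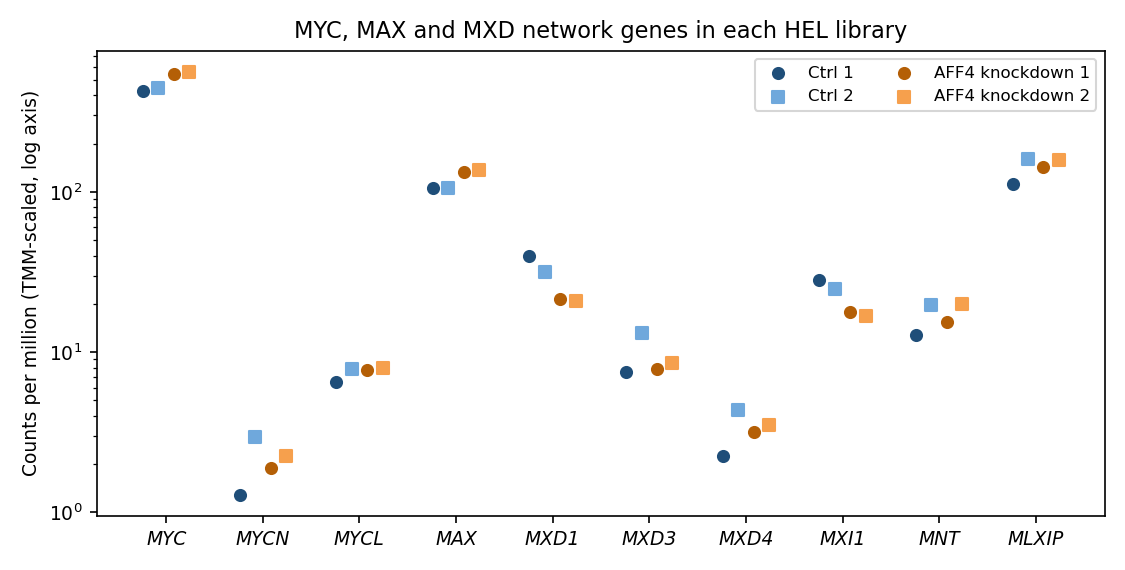
CPM of each member (log axis) in the 2 Ctrl and 2 AFF4 knockdown libraries, 1 point a library. MYC and MAX are higher and MXD1 and MXI1 lower in both knockdown libraries than in both Ctrl libraries, and the groups of the other 6 members overlap.

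MYC (chromosome 8, 127735434 to 127741434, plus strand, GENCODE v29 on hg38) was the most abundant member by far. It was counted 8000 times in Ctrl 1 and 6664 times in Ctrl 2, with 9764 and 9429 counts in the first and second knockdown library, or 428 and 446 CPM against 539.7 and 560.0 CPM. Both knockdown libraries were above both Ctrl libraries, and the gap between the groups was several times the distance within either. The level was 437 ± 12.6 CPM in Ctrl and 549.9 ± 14.4 CPM under knockdown (n = 2 each), and the log2 fold change was 0.33 ± 0.12 (SE) with a 95% interval of 0.04 to 0.62 (edgeR adjusted p = 0.275). The difference did not pass the test over all genes.

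MAX (chromosome 14, 65006174 to 65102695, minus strand), the shared partner, had nearly the same difference as MYC. Its counts were 1963 and 1589 in Ctrl and 2396 and 2282 under knockdown, or 105 and 106 CPM against 132 and 136 CPM. The Ctrl libraries were close to each other and the groups did not overlap. The level was 106 ± 0.9 CPM in Ctrl and 134 ± 2.2 CPM under knockdown (n = 2 each), with a log2 fold change of 0.34 ± 0.14 (SE; 95% interval 0.02 to 0.67; edgeR adjusted p = 0.312).

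The other MYC family genes were at low levels. MYCL (chromosome 1, 39895426 to 39902256, minus strand) had 6.48 and 7.83 CPM in Ctrl and 7.68 and 7.90 CPM under knockdown, and the groups overlapped. Its log2 fold change was 0.13 ± 0.21 (SE; 95% interval -0.37 to 0.62; edgeR adjusted p = 0.864). MYCN (chromosome 2, 15940564 to 15947007, plus strand), best known from neural tumours, rested on 24 and 44 counts in Ctrl and 34 and 38 under knockdown. Its knockdown libraries lay between the Ctrl libraries, and the interval of its log2 fold change ran from -0.98 to 0.98. Its antisense neighbour MYCNOS had at most 3 counts in a library. Per exonic kilobase, MYC made up between 98.2% and 98.8% of the summed level of the 3 genes in each library.

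Among the repressors, MXD1 (chromosome 2, 69897688 to 69942945, plus strand) showed the largest difference of all members. Its counts were 737 and 469 in Ctrl and 385 and 351 under knockdown, or 39.5 and 31.4 CPM against 21.3 and 20.8 CPM. The groups did not overlap, although the Ctrl libraries differed from each other by -0.33 on the log2 scale (Ctrl 2 relative to Ctrl 1). The level was 35.4 ± 5.7 CPM in Ctrl and 21.1 ± 0.306 CPM under knockdown (n = 2 each), with a log2 fold change of -0.75 ± 0.19 (SE; 95% interval -1.20 to -0.30; edgeR adjusted p = 0.137). MXD1 was the 1 member that passed in DESeq2 (adjusted p = 0.0487, n = 2 each, in a range of 8e-17 to 1 over its 15 alternatives).

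MXI1 (chromosome 10, 110207605 to 110287365, plus strand), the MXD2 repressor, followed the same order of libraries. It had 528 and 369 counts in Ctrl and 321 and 283 under knockdown, or 28.3 and 24.7 CPM against 17.7 and 16.8 CPM. The groups did not overlap, and Ctrl 1 was the highest library for MXD1 and for MXI1. The level was 26.5 ± 2.52 CPM in Ctrl and 17.3 ± 0.66 CPM under knockdown (n = 2 each), with a log2 fold change of -0.62 ± 0.18 (SE; 95% interval -1.05 to -0.18; edgeR adjusted p = 0.185).

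The remaining repressors varied more between the Ctrl libraries than between the groups. MXD3 (chromosome 5, 177301461 to 177312757, minus strand), tied to proliferating cells, had 7.5 and 13.1 CPM in Ctrl and 7.85 and 8.49 CPM under knockdown. Ctrl 2 stood above the other 3 libraries, and the log2 fold change was -0.32 ± 0.29 (SE; 95% interval -1.0 to 0.36; edgeR adjusted p = 0.695). Of the exonic bases of MXD3, 22.5% are shared with PRELID1 on the other strand and 18.0% with RAB24 on the same strand, so its count is uncertain. MXD4 (chromosome 4, 2247432 to 2262294, minus strand) rested on 42 and 65 counts in Ctrl and 57 and 59 under knockdown, and its knockdown libraries lay between the Ctrl libraries (95% interval of the log2 fold change -0.78 to 0.84).

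MNT (chromosome 17, 2384060 to 2401118, minus strand), the MAX-bound repressor found in most dividing cells, had 12.7 and 19.7 CPM in Ctrl and 15.3 and 19.8 CPM under knockdown. Replicate 2 was the higher library in both groups, and the groups overlapped (log2 fold change 0.12 ± 0.27, SE; 95% interval -0.51 to 0.74; edgeR adjusted p = 0.903). MLXIP (chromosome 12, 122078722 to 122147347, plus strand), the glucose-responsive MondoA, had 112 and 161 CPM in Ctrl and 143 and 157 CPM under knockdown. Its groups overlapped as well, with Ctrl 1 lowest and Ctrl 2 highest (log2 fold change 0.14 ± 0.20, SE; 95% interval -0.32 to 0.60; edgeR adjusted p = 0.829). In 6 of the 10 members, namely those whose groups overlapped, the Ctrl libraries differed from each other by more than the groups did.

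**Figure D2:**
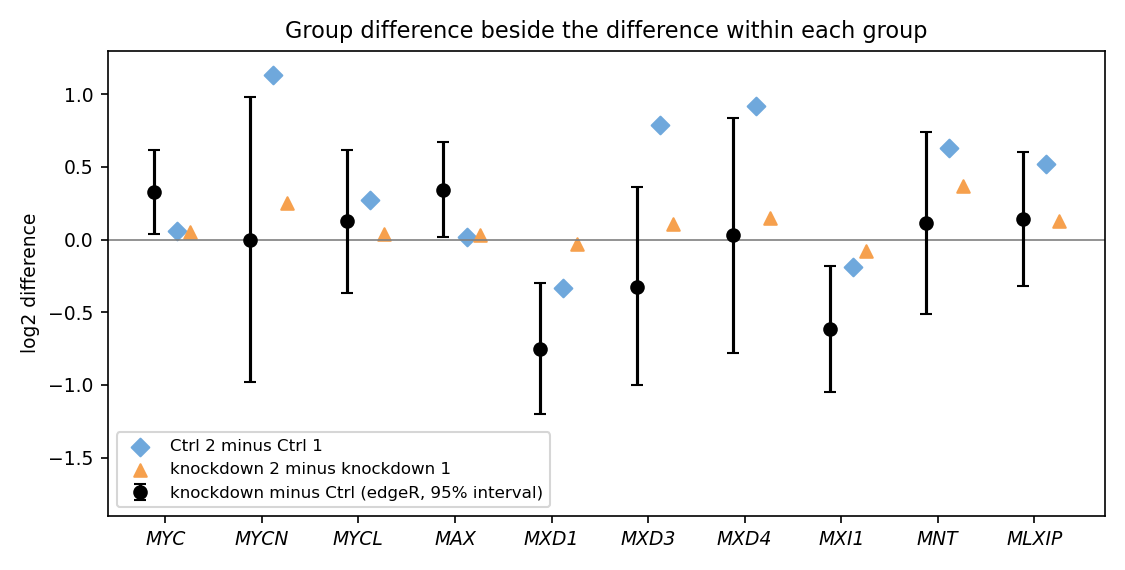
The log2 difference between the groups for each member (black, edgeR estimate with its 95% interval) beside the difference between the 2 Ctrl libraries (diamonds) and between the 2 knockdown libraries (triangles). The difference between the Ctrl libraries exceeds that between the groups for MYCN, MYCL, MXD3, MXD4, MNT and MLXIP, and is smaller for MYC, MAX, MXD1 and MXI1.

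The difference between the Ctrl libraries ran parallel to the GC content of the transcript. MXD1 and MXI1, at 42.7% and 43.7% GC in their longest transcripts, were lower in Ctrl 2 than in Ctrl 1, by -0.33 and -0.19 on the log2 scale. MAX (51.3% GC) and MYC (53.9% GC) were nearly level in the Ctrl libraries, at 0.02 and 0.06. The other 6 members, from 55.1% GC in MYCL to 61.4% in MNT, were higher in Ctrl 2, by 0.27 in MYCL and by up to 1.13 in MYCN. Over the 10 members Spearman's rho was 0.794 and Pearson's r 0.837, a description over genes that share the same 2 libraries. Across the 13218 tested genes with a GC value rho was 0.815 in Ctrl and 0.406 between the knockdown libraries, and the median absolute difference was 0.343 in Ctrl and 0.0901 under knockdown (log2 CPM).

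**Figure D3:**
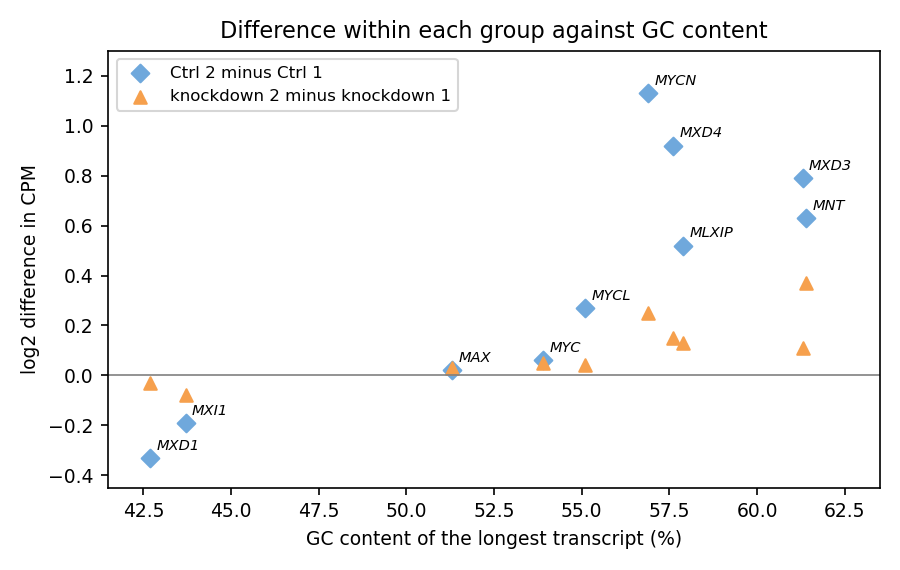
Difference between the 2 Ctrl libraries (diamonds, named) and between the 2 knockdown libraries (triangles) in log2 CPM for each member, against the GC content of its longest transcript in percent. Ctrl 2 lies below Ctrl 1 for the members with the lowest GC content, MXD1 and MXI1, and above it for the other 8.

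Removal of a trend with GC content from each library left the members' differences almost as they were and changed their calls. The log2 fold changes became 0.31 for MYC, 0.32 for MAX, -0.73 for MXD1 and -0.61 for MXI1, with edgeR adjusted p of 0.0121, 0.00498, 8.06e-04 and 0.00235 (n = 2 each). In that fit 4 of 10 members passed, where 29.4% of the tested genes did (14.7% higher and 14.6% lower). With a replicate block 1 member, MXD1, passed and 6.54% of genes, with both 5 members and 40.3%, and with no filter on low counts 1 member, MXD1, and 3.89%. Without Ctrl 1, 5 members passed and 44.0% of the tested genes, and without Ctrl 2, 6 members and 48.4%. Without knockdown 1 or knockdown 2, 0 members passed, and 0.331% and 0.366% of the tested genes. With 1 library left out the log2 fold change stayed between 0.30 and 0.39 for MYC, 0.33 and 0.39 for MAX, -0.91 and -0.57 for MXD1 and -0.71 and -0.51 for MXI1, with edgeR adjusted p between 8e-17 and 1 over these fits. MXD1 was -0.57 without Ctrl 1 and -0.91 without Ctrl 2, and MXD3, MXD4, MNT, MLXIP, MYCN and MYCL each changed sign without 1 Ctrl library (MXD3 0.12 without Ctrl 2). Where the groups do not overlap, as in MYC, MAX, MXD1 and MXI1, leaving out 1 library could hardly reverse the direction.

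Levels were compared between genes per exonic kilobase (CPM divided by the union of annotated exons), averaged over the 4 libraries. MYC led with 146 in Ctrl and 183 under knockdown, above 98.6% of the tested genes with a length. MAX followed with 23.9 and 30.2 CPM per kilobase, and MLXIP with 9.79 and 10.8. The ranges over the 4 libraries overlapped for MXI1 (5.75 and 3.75) and MXD1 (5.58 and 3.32), MNT and MXD3, MXD3 and MYCL, and MYCN and MXD4. MXD4 was lowest at 0.468 and 0.471, and MYCN lay above it within each library. MXD1 and MXI1 together gave most of the MXD family's level, from 12.3 and 10.3 CPM per kilobase of 14.1 and 13.5 in Ctrl to 7.20 and 6.93 of 9.17 and 9.08 under knockdown.

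The balance of MYC and MAX with the MXD genes was read as ratios within a library, which do not depend on how libraries are scaled. A trend with GC content does not cancel in them. The repressor MNT was left out of the ratios. Per exonic kilobase it was at 1.45 and 2.26 CPM in Ctrl and 1.75 and 2.27 CPM under knockdown, with overlapping groups. MYC over MAX, per exonic kilobase, was 6.02 and 6.19 in Ctrl and 6.02 and 6.10 under knockdown, and the groups overlapped. MYC over the 4 MXD genes summed was 10.1 and 11.0 in Ctrl and 19.6 and 20.6 under knockdown. Both knockdown libraries were well above both Ctrl libraries, with means of 10.6 ± 0.666 and 20.1 ± 0.674 (n = 2 each). With CPM not divided by length the same ratio was 5.53 and 6.07 in Ctrl and 10.8 and 11.3 under knockdown. MAX over the 4 MXD genes was 1.68 and 1.78 in Ctrl and 3.26 and 3.37 under knockdown. The ratios restate the members' own differences and are given as a description, since 2 libraries against 2 cannot give an exact permutation p under 0.333. They concern transcripts and not proteins.

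**Figure D4:**
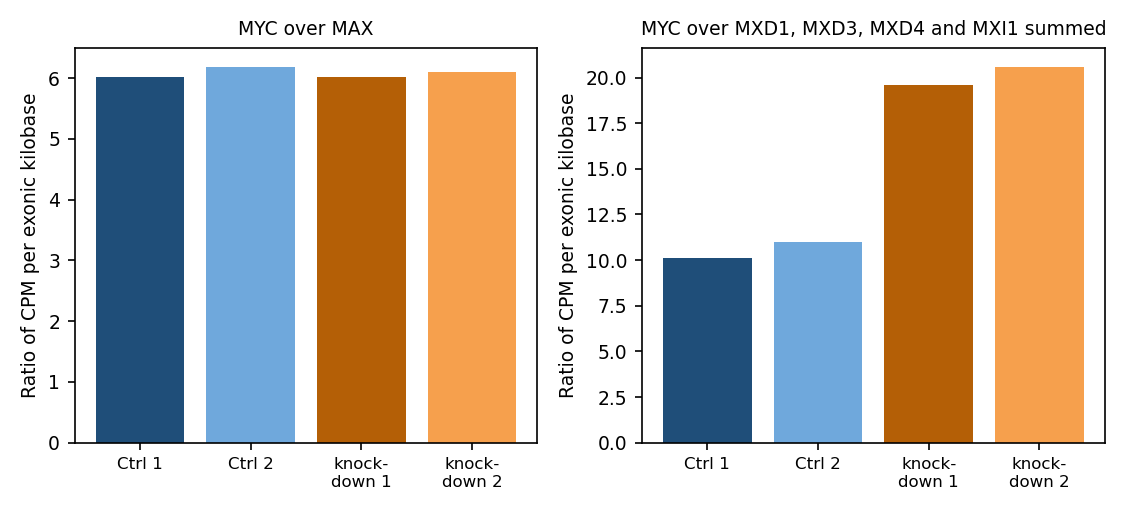
Ratio of MYC to MAX (left) and of MYC to the sum of MXD1, MXD3, MXD4 and MXI1 (right) in each library, in CPM per exonic kilobase, 1 bar a library. The ratio to MAX lies between 6.02 and 6.19 in all 4 libraries, and the ratio to the MXD genes is 10.1 and 11.0 in Ctrl and 19.6 and 20.6 under knockdown.

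The genes most like MYC and MAX over the 4 libraries were found by the distance between centred log2 CPM profiles, among 10706 tested genes with a mean of at least 5 CPM. For MYC they were COA7 (0.0111), APLP2 (0.0163) and SPTBN1 (0.0257), and for MAX they included AMOTL1 (0.0190) and MRPL46 (0.0206). MYC and MAX lay 0.0341 apart. Over 4 libraries many genes have a like profile, and nothing further was read from these names.

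Among 26 partners and relatives of the network, such as chromatin cofactors of MYC and E-box factors outside it, 24 were tested, 12 were positive and 12 negative, and the median log2 fold change was -0.01 (-0.14 without Ctrl 1 and 0.17 without Ctrl 2). In this list 0 genes passed edgeR, DESeq2 or limma-voom after adjustment over all genes. By an unadjusted edgeR p under 0.05 there were 2 higher and 1 lower, against 6.79% and 8.19% of all tested genes. With the GC correction 5 higher and 3 lower passed, against 14.7% and 14.6% of all tested genes. MITF, an E-box factor of melanocytes, mast cells and lysosomal genes, was at 12.6 ± 2.69 CPM in Ctrl and 22.3 ± 1.21 CPM under knockdown (n = 2 each; log2 fold change 0.82 ± 0.22, SE; edgeR adjusted p = 0.147). Its relative TFEB, a regulator of lysosome genes, had -0.87 ± 0.33 as its log2 fold change (SE; edgeR adjusted p = 0.277) on 26 to 55 counts. RUVBL1, an ATPase of the TIP60 and INO80 complexes, had 0.33 ± 0.13 (SE; edgeR adjusted p = 0.303). Of the closest relatives, named after their values were seen, MLX was at 82.9 ± 1.80 and 91.8 ± 2.03 CPM and MGA, a MAX-bound repressor, at 193 ± 37.3 and 151 ± 1.90 CPM in Ctrl and knockdown, with edgeR adjusted p of 0.726 and 0.404. MLXIPL, the liver form of Mondo, and MYCBP were listed at 0 in all 4 libraries, which is no measure of absence.

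The 22 genes of MYC protein turnover and phosphorylation were all tested, with 10 positive, 12 negative and a median of -0.02. After adjustment over all genes, 0 genes of the list passed edgeR or limma-voom and 2 lower passed in DESeq2, where 1.63% of genes did. By an unadjusted edgeR p under 0.05 there were 0 higher and 4 lower, against 6.79% and 8.19% of all tested genes. PIM1, a kinase downstream of JAK-STAT signalling that phosphorylates MYC, had the smallest p of the list. It was at 1399 and 1697 CPM in Ctrl and 825 and 858 CPM under knockdown, with no overlap, a log2 difference of -0.88 ± 0.14 (SE) and an edgeR adjusted p of 0.0519. The mitotic kinases PLK1 and AURKB had -0.81 ± 0.17 and -0.55 ± 0.19 (SE; edgeR adjusted p = 0.0936 and 0.243). With the GC correction 3 higher and 7 lower genes of this list passed, beside 14.7% and 14.6% of all tested genes.

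Of 73 genes that MYC is known to activate, 72 were tested, and 44 were positive and 28 negative, with a median of 0.07 that turned to -0.05 without Ctrl 1. Among all tested genes 48.8% were positive. EIF4A1, a translation factor of all growing cells, was listed at 0 in every library, so a 0 in this table is no measure of absence. Of the activated targets 0 passed edgeR, DESeq2 or limma-voom after adjustment over all genes. By an unadjusted edgeR p under 0.05 there were 6 higher and 4 lower, against 6.79% and 8.19% of all tested genes. With the GC correction 20 higher and 11 lower passed, where 14.7% and 14.6% of all tested genes did. CCND2, a D-type cyclin, and RRN3, the initiation factor of RNA polymerase I, had -0.54 ± 0.14 and -0.49 ± 0.15 (SE; edgeR adjusted p = 0.147 and 0.185). Classical targets, named after their values were seen, ranged from -0.42 for NPM1, a nucleolar chaperone, to 0.24 for the polyamine enzyme ODC1, with 0.09 for the nucleolar protein NCL, 0.10 for the pyrimidine enzyme CAD and 0.07 for the kinase CDK4 (log2 fold change, edgeR adjusted p between 0.302 and 0.901).

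Of these activated targets 60 had a promoter window and 48.3% of them held CACGTG. The 29 with the E-box had a median log2 fold change of 0.12 and the others 0.01. In the list repressed by MYC, described next, 4 of 17 genes with a window held it, with a median of -0.57 against -0.38 without it, and among the MondoA and MLX targets 3 of 6 did, with 0.08 against -0.12. Among all tested genes with a window the medians were 0.035 with the E-box (1286 genes) and -0.018 without it, and 0.051 and -0.002 with the GC correction. These medians are descriptions, and no test was made of them.

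Of 27 genes known to be repressed by MYC, chosen like the other lists with earlier results of these data known, 22 were tested. Of these 18 were negative and 4 positive, with a median of -0.39 against -0.0089 over all genes. Given that choice, the comparison with all genes is a description and no independent support. In 15 both knockdown libraries lay below both Ctrl libraries, and in 3 above, against 23.0% and 23.1% of the tested genes. Non-overlap lower and higher was seen in 8 and 4 of 22 MYC turnover genes and 15 and 22 of 72 activated targets. For network partners it was 4 and 5 of 24, and for MondoA and MLX targets 3 and 1 of 7. GADD45B, CEBPA and CEBPD of the repressed list had group means of at most 2.13 CPM. Of all tested genes 51.2% were negative. Of the repressed targets 0 passed edgeR or limma-voom after adjustment over all genes, and 4 lower passed in DESeq2, where 1.63% of genes did. By an unadjusted edgeR p under 0.05 there were 1 higher and 7 lower, against 6.79% and 8.19% of all tested genes. With the GC correction 2 higher and 10 lower passed, where 14.7% and 14.6% of all tested genes did. The median lay between -0.38 and -0.31 with 1 library left out. ID2, an inhibitor of differentiation factors, was at 64.9 ± 6.28 CPM in Ctrl and 36.6 ± 1.5 CPM under knockdown (n = 2 each; log2 fold change -0.82 ± 0.17, SE; edgeR adjusted p = 0.086). KLF6, an immediate early zinc-finger factor, and CLU, the chaperone clusterin, had -1.02 ± 0.21 and -0.70 ± 0.15 (SE; edgeR adjusted p = 0.0901 and 0.0936). The list also holds cyclin-dependent kinase inhibitors, which are named here with their values already seen. CDKN1A had a log2 fold change of -1.54 on 46 to 187 counts and CDKN1B had 0.04 (edgeR adjusted p = 0.101 and 0.936). CDKN2C went the other way, with 0.44 ± 0.16 (SE; edgeR adjusted p = 0.274), and was the 1 gene higher by the unadjusted p. CDKN1C had -0.20 (edgeR adjusted p = 0.87) at 0.884 CPM in Ctrl and 0.773 CPM under knockdown. Many of these genes answer to p53, TGF-beta or growth factor signals as well as to MYC.

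For MLXIP with MLX a short list of 7 target genes was chosen. All were tested, and 3 were positive and 4 negative, with a median of -0.05. After adjustment over all genes, 0 of these passed edgeR, DESeq2 or limma-voom. By an unadjusted edgeR p under 0.05 there were 0 higher and 1 lower, against 6.79% and 8.19% of all tested genes. The estimates for the established targets TXNIP and ARRDC4 differed in sign, and neither was called. TXNIP, which restrains glucose uptake, was at 1636 and 1382 CPM in Ctrl and 1046 and 1013 CPM under knockdown, with no overlap (log2 fold change -0.55 ± 0.13, SE; edgeR adjusted p = 0.119). ARRDC4, an arrestin with the same role, was at 103 and 83.1 CPM in Ctrl and 121 and 121 CPM under knockdown. Its log2 fold change was 0.37 ± 0.16 (SE; 95% interval -0.01 to 0.75; edgeR adjusted p = 0.350), and its Ctrl libraries differed by -0.31. The other 5, ARRDC2, ARRDC3, KLF10, PFKFB3 and HK2, lay between -0.12 and 0.09 with edgeR adjusted p of at least 0.760.

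**Figure D5:**
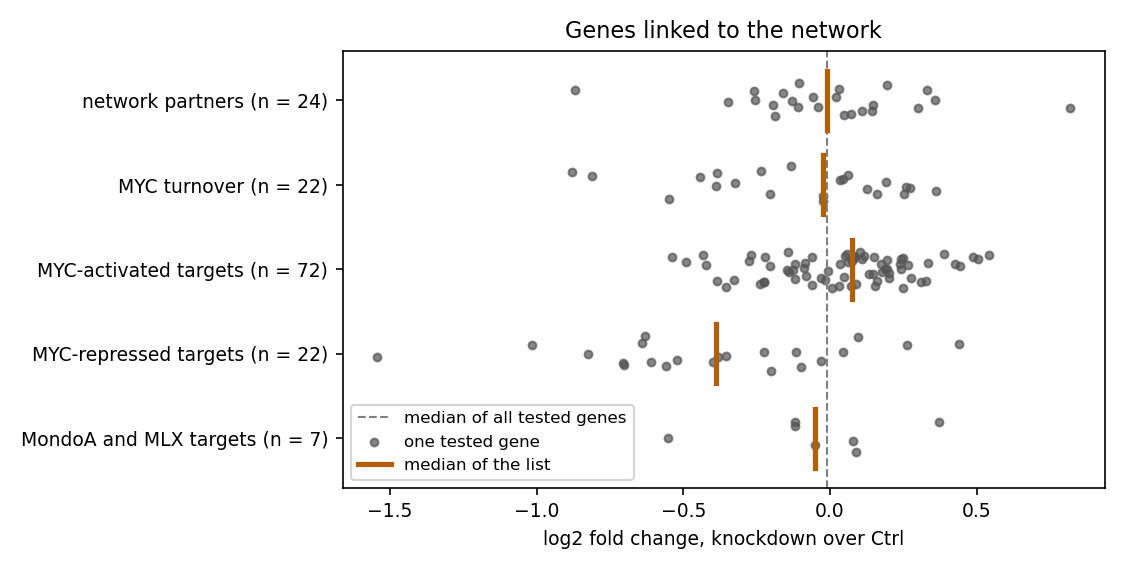
Log2 fold change (knockdown over Ctrl, edgeR) of each tested gene in 5 lists linked to the network, 1 point a gene, with the median of each list (orange) and of all tested genes (dashed). The list repressed by MYC has its median at -0.39, and the other 4 lists have medians between -0.05 and 0.07.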

How the data were processed

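The authors deposited whole-number counts of reads per gene symbol, 1 column a library, with 0 other columns of values. The build was hg38, and HISAT2 2.1.0, featureCounts 1.6.1 and fastp 0.13.1 were used, per the submitters' processing notes. Annotation, strandedness of counting and handling of multi-mapped reads were not given in the sources used here. Reads of overlapping or antisense genes may be misassigned. Counts were fitted with edgeR 4.0.16 (R 4.3.3): filterByExpr defaults (minimum count 10, total 15), TMM scaling, group as the only term, all 4 libraries, quasi-likelihood F test, Benjamini-Hochberg adjustment over all 13572 genes, calls at an adjusted p under 0.05. The SE is the absolute log2 fold change over the square root of F, and 95% intervals use the t quantile with the fit's degrees of freedom. The common biological coefficient of variation was 0.153. The procedure was tested on simulated data. Positions, exonic lengths and GC content come from GENCODE v29.

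Members and lists were chosen with earlier results of these data known. All members are named, and from each list the 3 genes with the smallest p, any called gene and the whole MondoA list; 2 genes that the rule names are not reported here. Alternatives were other scalings, filters, DESeq2 1.42.0, limma-voom (limma 3.58.1), a replicate block, a GC correction (lowess trend of log-CPM, span 0.4, as an offset), each library left out and an adjusted p under 0.01.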

Additional observations from a re-analysis of the deposited data

How the results depend on the processing

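MYC, MAX, MXD1 and MXI1 kept their direction under all 15 alternatives. Part of this was fixed in advance. The stricter cut on the adjusted p uses the same fit. The fits with 1 library left out could hardly reverse these members, whose groups do not overlap. With the GC correction MYC, MAX, MXD1 and MXI1 passed, with log2 fold changes of 0.31, 0.32, -0.73 and -0.61. With the GC correction and the replicate block together, MYC (0.32), MAX (0.32), MXD1 (-0.73), MXI1 (-0.61) and MLXIP (0.16) passed. MXD1 also passed with no filter (-0.75), in DESeq2 (-0.75) and with the replicate block (-0.74). MYCN, near 0 in the fit reported, was positive with upper quartile (0.01) and library size scaling (0.02), in limma-voom (0.11), with the block (0.03), the GC correction (0.02) and both (0.04). With 1 library left out, the log2 fold change ranged from 0.30 to 0.39 in MYC, -0.51 to 0.68 in MYCN, -0.01 to 0.26 in MYCL, 0.33 to 0.39 in MAX, -0.91 to -0.57 in MXD1, -0.67 to 0.12 in MXD3, -0.39 to 0.56 in MXD4, -0.71 to -0.51 in MXI1, -0.17 to 0.46 in MNT and -0.10 to 0.42 in MLXIP. Among the reversals were MYCN 0.68 without Ctrl 2 and 0.14 without knockdown 1, MYCL -0.01 without Ctrl 1, MXD3 0.12 without Ctrl 2, MXD4 -0.39 without Ctrl 1 and -0.05 without knockdown 2, MNT -0.17 without Ctrl 1 and -0.08 without knockdown 2, and MLXIP -0.10 without Ctrl 1. These fits take a lone library to vary as the 2 of the other group do, and so rest on the spread of 1 pair, which was wider in Ctrl than in the knockdown.

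The count of called members was 0, against 1 with no filter, 1 in DESeq2, 1 with the replicate block, 4 with the GC correction, 5 with both and between 0 and 6 with 1 library left out. Over all genes 47 were higher and 40 lower. There were 328 and 406 with no filter, 1 and 4 with at least 5 CPM in 2 libraries, 185 and 212 in DESeq2, 408 and 480 with the replicate block, 1944 and 1936 with the GC correction, 2694 and 2632 with both, 1 and 2 at an adjusted p under 0.01, and between 35 and 3407 higher and between 11 and 3315 lower with 1 library left out. In the 5 lists linked to the network 0 genes were called in the fit reported. The lists held 24 tested network partners, 22 MYC turnover genes, 72 MYC-activated targets, 22 MYC-repressed targets and 7 MondoA and MLX targets. Of all tested genes 3.89% were called with no filter, 3.05% in DESeq2 and 6.54% with the replicate block. With the GC correction 29.4% were called, and with both 40.3%. The list counts that follow are to be read against these shares, and are not by themselves results about the lists. Network partners had 1 with no filter, 1 with the block, 8 with the GC correction, 9 with both and 0 to 13 with 1 library left out. MYC turnover had 2 with no filter, 2 in DESeq2, 2 with the block, 10 with the GC correction, 14 with both and 0 to 16 with 1 library left out. MYC-activated targets had 1 with no filter, 31 with the GC correction, 41 with both and 0 to 48 with 1 library left out. MYC-repressed targets had 5 with no filter, 4 in DESeq2, 5 with the block, 12 with the GC correction, 14 with both and 0 to 13 with 1 library left out. MondoA and MLX targets had 1 with no filter, 1 with the block, 2 with the GC correction, 2 with both and 0 to 5 with 1 library left out. The cause of these changes was not tested.

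The labels give both groups the same replicate numbers without saying what they mark. Same-numbered libraries deviated together from their group means (correlation 0.285 over genes), which is a hint from the data with 2 pairs only. In both groups the difference of replicate 2 from replicate 1 ran with GC content (Spearman's rho 0.815 in Ctrl and 0.406 under knockdown). The part of GC content in the correlation was not tested. The block changed the count of called members from 0 to 1. MYCN and MXD4 could not be fitted with the stricter filter. MYCN, with 24 to 44 counts, and MXD4, with 42 to 65, are limited by depth.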
